A study of Arabidopsis thaliana with 30 samples.

Results

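Nuclei of the Arabidopsis thaliana inflorescence stem with a signal of the SMXL5pro:H4-GFP reporter were compared with nuclei of the same line without that signal. The comparison used 6 of the 30 libraries of the series, chosen by line and by sort gate: 3 libraries of GFP-positive nuclei, numbered 10, 11 and 12, and 3 libraries of GFP-negative nuclei, numbered 40, 41 and 42. The series profiled nuclear RNA of stem tissues by fluorescence-activated nucleus sorting (FANS), which isolates nuclei by a fluorescent histone made under a tissue-specific promoter. Both groups came from Col-0 plants of the single genotype SMXL5pro:H4-GFP, in which the SMXL5 promoter drives a histone H4 fused to green fluorescent protein (GFP). Both therefore carried the transgene, and the sort separated them by the GFP signal of the nuclei. By the labels the plants had 3 weeks of short days with 8 h of light and were then moved to long days with 16 h of light, and each library was made from 15000 nuclei of the second internode. The GFP-negative group was a mixture of all other stem nuclei, and it could also hold nuclei with a GFP signal below the gate. Nothing in the sources says whether the libraries of a group came from separate plants, so p-values measure the spread between these libraries.

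The vascular cambium is a tissue of stem cells that forms xylem towards the inside of the stem and phloem towards the outside. In the primary stem, which was sampled here, the paper places these cells in the vascular bundles only. SMXL5 belongs to the SUPPRESSOR OF MAX2 1-LIKE proteins, relatives of the targets of strigolactone and karrikin signalling, and together with SMXL3 and SMXL4 it promotes phloem formation. Its promoter is used as a marker of the distal side of the cambium, which faces the phloem, and of the first cells that enter the phloem lineage.

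The 6 libraries held 1039446 to 5699154 reads on genes. All 3 GFP-positive libraries were deeper, with 4386810 ± 1153215 reads against 2020208 ± 1075856 reads in the GFP-negative libraries (SD, n = 3 each; two-sided exact permutation test, p = 0.1, the smallest that 3 against 3 libraries can give). The GFP-negative libraries were also less alike. Across 10290 well expressed genes the log2 values of pairs of libraries correlated with a mean Pearson's r of 0.881 within the GFP-positive group and of 0.719 within the GFP-negative group. The mean over pairs of libraries from different groups was 0.771, so GFP-negative libraries resembled GFP-positive libraries at least as much as each other.

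Reads on the GFP sequence were compared between the sorted populations. Where several preparations existed, those with a strong GFP contrast had been chosen for sequencing, so a GFP difference was partly selected for. The GFP reads numbered 25, 56 and 57 in the GFP-positive libraries, against 3, 6 and 5 in the GFP-negative libraries. Scaled to library size this was 10.5 ± 3.62 CPM against 3.14 ± 2.44 CPM (read counts scaled to a common library total; SD, n = 3 each), a difference of 7.31 CPM (two-sided exact permutation test, p = 0.1, the smallest possible). The groups did not overlap, and GFP reads were found in every GFP-negative library. Counts without molecular identifiers can hold copies of 1 molecule, and intervals or floors from them cover counting error only.

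SMXL5 and AT4G39190, the gene of a nucleolar-like protein, were the 2 genes that differed between GFP-positive and GFP-negative nuclei at an adjusted p of 0.05, out of 30317 genes tested (0.0066%, edgeR quasi-likelihood test with Benjamini-Hochberg adjustment). Both rose in GFP-positive nuclei, and no gene fell (0%). At an unadjusted p under 0.05 there were 897 genes with a higher level (2.96%) and 1148 with a lower level (3.79%), together 2045 where 1516 would pass by the threshold alone. The count of called genes depended on the variance model. A newer setting of the same edgeR test called 15 genes, 10 higher (0.033%) and 5 lower (0.0165%). DESeq2 called 69 genes, 40 higher (0.195%) and 29 lower (0.141%). Both SMXL5 and AT4G39190 were among the genes called by either.

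SMXL5 (AT5G57130), the gene whose promoter drives the reporter, had 227, 249 and 159.6 CPM in the GFP-positive libraries and 60.8, 73.8 and 55.1 CPM in the GFP-negative libraries, in CPM after TMM scaling of the library sizes. Every GFP-positive library lay above every GFP-negative library, as for 6.99% of all tested genes. The means were 212 ± 46.6 CPM against 63.2 ± 9.58 CPM (SD, n = 3 each), and the log2 fold change was 1.75 ± 0.23 (SE, adjusted p = 0.0398). Without GFP-positive library 12 or GFP-negative library 42 the adjusted p of SMXL5 was 0.0169 and 0.0161, and without libraries 10, 11, 40 or 41 it lost its call (adjusted p = 0.329, 0.300, 0.0900 and 0.226 in edgeR), while its log2 fold change lay between 1.63 and 1.93 in all 6 fits. Both called genes kept their calls when all libraries were sampled down to the depth of the shallowest one. GFP-negative nuclei still had SMXL5 reads in all 3 libraries. Whether any of the SMXL5 reads came from the transgene was not tested.

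AT4G39190 encodes a protein annotated as nucleolar-like. Its levels were 129, 155 and 125 CPM in GFP-positive nuclei and 47.8, 50.2 and 38.2 CPM in GFP-negative nuclei. The groups were well separated, with means of 136 ± 16.3 CPM against 45.4 ± 6.31 CPM (SD, n = 3 each) and a log2 fold change of 1.59 ± 0.23 (SE, adjusted p = 0.0450, edgeR). It kept its call without GFP-negative library 42 (adjusted p = 0.0242) and lost it without any of the other 5 libraries, with adjusted p-values of up to 0.329 in edgeR, while its log2 fold change lay between 1.49 and 1.67 in all 6 fits.

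The sequences upstream of these 2 genes are shown because they are the genes that rose. The motif AAAG is the core bound by Dof transcription factors, several of which had higher values, described further on. None of the Dof genes was called, and the median log2 fold change of the family was 0.03. Whether Dof factors act on these 2 genes was not tested. The motif was chosen after the values were seen. Each line gives the 250 bases before the annotated gene start in the RefSeq annotation of TAIR10.1, from 5′ to 3′ on the strand of the gene, with AAAG on either strand in capitals (CTTT where it lies on the other strand).
SMXL5, chr5:23144697-23144946, plus strand: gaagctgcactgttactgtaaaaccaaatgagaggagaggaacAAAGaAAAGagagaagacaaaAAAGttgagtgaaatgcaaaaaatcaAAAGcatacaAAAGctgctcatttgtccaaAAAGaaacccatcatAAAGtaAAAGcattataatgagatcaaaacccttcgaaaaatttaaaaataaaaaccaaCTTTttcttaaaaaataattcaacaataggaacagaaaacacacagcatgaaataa
AT4G39190, chr4:18253217-18253466, minus strand: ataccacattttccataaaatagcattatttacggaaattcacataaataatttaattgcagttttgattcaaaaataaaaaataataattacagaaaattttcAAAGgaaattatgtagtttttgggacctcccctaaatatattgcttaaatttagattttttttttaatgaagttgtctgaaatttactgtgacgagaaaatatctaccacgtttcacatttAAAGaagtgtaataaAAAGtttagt
The SMXL5 window held 9 copies of AAAG, a number reached or passed by 3.2% of the 27443 windows of protein-coding genes. The AT4G39190 window held 3 copies, reached by 76.3% of windows, and the median window held 4. The motif is short and 98% of windows hold it at least once, so a match describes the letters and no binding site.

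**Figure D1:**
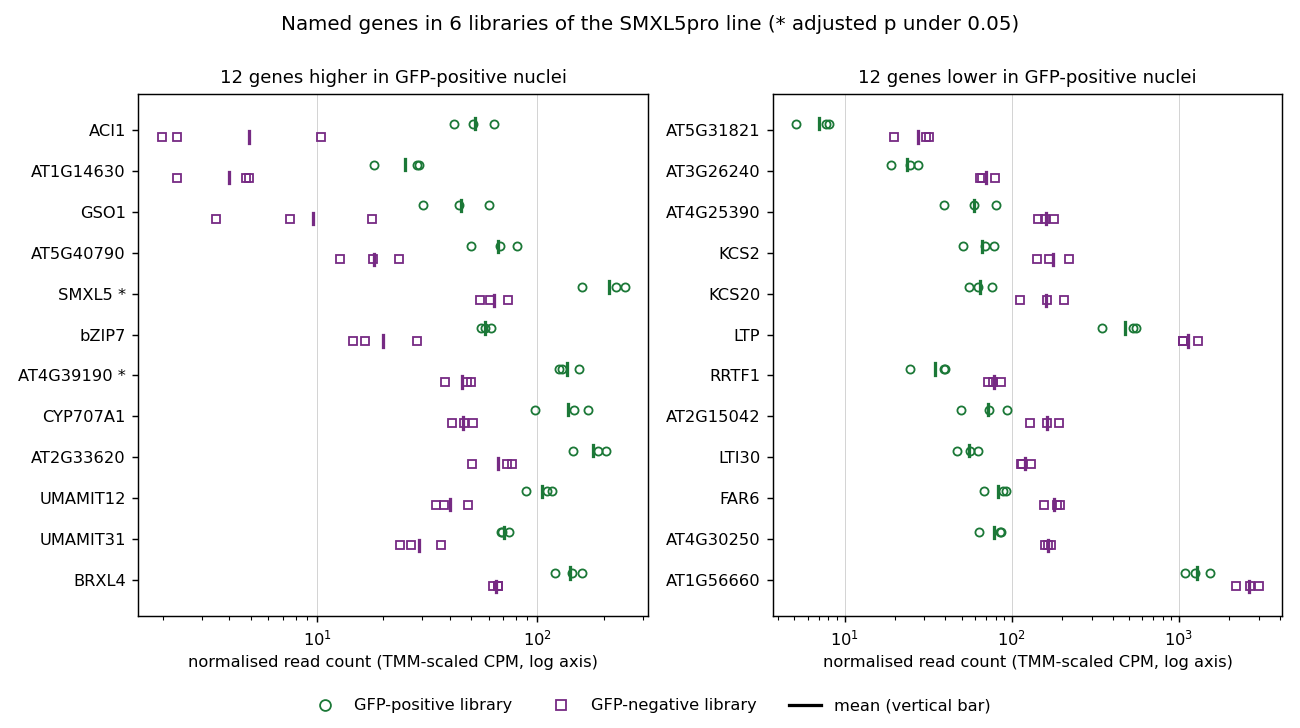
Normalised read counts (TMM-scaled CPM, log axis) of the 12 genes higher and the 12 genes lower in GFP-positive nuclei with the smallest unadjusted p, one point per library and a vertical bar at the group mean. By the rule that chose them no gene has overlapping groups; the asterisks mark SMXL5 and AT4G39190, the 2 genes past the adjusted threshold.

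Genes were next described by a naming rule: the 12 higher and the 12 lower genes with the smallest unadjusted p among those with an average log2 CPM of at least 4 and no overlap between the groups. The rule used the values of this contrast, so the separation of the groups in the plot of the 24 genes is a description. Apart from SMXL5 and AT4G39190, none of them passed the adjusted p of 0.05, and the adjusted p-values from edgeR of the other genes ran from 0.0621 to 0.290.

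Among the higher genes, the largest difference was that of ACI1 (AT5G01370), which encodes ALC-interacting protein 1. It had 50.8, 63.6 and 41.7 CPM in GFP-positive nuclei against 10.5, 1.97 and 2.32 CPM in GFP-negative nuclei, a log2 fold change of 3.16 ± 0.48 (SE, adjusted p = 0.0621). With 1 library left out this fold change lay between 2.78 and 4.56, the highest without GFP-negative library 40, and the adjusted p between 0.00455 and 0.442 in edgeR. The 2 lowest GFP-negative libraries were the shallower ones, numbered 41 and 42. There 3 reads amount to 2.89 and 1.62 CPM, so these ACI1 values rest on few reads and the size of the fold change is uncertain. CYP707A1 (AT4G19230), an enzyme that breaks down the hormone abscisic acid, had 146, 169 and 97.6 CPM against 46.2, 51.1 and 41.1 CPM (log2 fold change 1.58 ± 0.25, adjusted p = 0.0790). AT2G33620, which encodes a DNA-binding protein with an AT-hook motif, had 188, 206 and 145 CPM against 50.4, 76.7 and 72.4 CPM (log2 fold change 1.45 ± 0.24, adjusted p = 0.0908). Of its length, 17.6% lies opposite other genes, where the counting, which ignored strand, assigned no read that touched both genes. The unnamed gene AT5G40790 had 67.8, 80.4 and 50.1 CPM against 12.7, 23.6 and 17.96 CPM (log2 fold change 1.92 ± 0.32, adjusted p = 0.0941).

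A pair of the higher genes were UMAMIT genes, a family of membrane transporters of which several move amino acids. UMAMIT12 (AT2G37460) had 111, 116 and 89.1 CPM in GFP-positive nuclei and 34.5, 48.2 and 37.7 CPM in GFP-negative nuclei (log2 fold change 1.41 ± 0.24, adjusted p = 0.0941). UMAMIT31 (AT4G01440) had 69.2, 74.2 and 68.6 CPM against 26.6, 36.4 and 23.8 CPM (log2 fold change 1.31 ± 0.27, adjusted p = 0.234). The family was looked up after these values were seen. Of 45 UMAMIT genes tested, 5 were higher and 3 lower at an unadjusted p under 0.05, where 2.96% and 3.79% of all tested genes were, none was called, and the median log2 fold change was -0.07.

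The remaining higher genes were BRXL4, bZIP7, GSO1 and AT1G14630. BRXL4 (AT5G20540) is a relative of BREVIS RADIX, a protein known for its part in phloem differentiation of the root. Its level was 143, 159 and 121 CPM in GFP-positive nuclei and 66.2, 65.9 and 63.2 CPM in GFP-negative nuclei, which were nearly identical to each other (log2 fold change 1.11 ± 0.21, adjusted p = 0.170). The leucine zipper factor bZIP7 (AT4G37730) had 57.5, 61.5 and 55.2 CPM against 16.5, 28.5 and 14.5 CPM (log2 fold change 1.60 ± 0.32, adjusted p = 0.180). GSO1 (AT4G20140), a receptor kinase needed for the Casparian strip of the root endodermis, had 30.3, 43.8 and 60.5 CPM against 3.48, 17.7 and 7.53 CPM (log2 fold change 2.41 ± 0.49, adjusted p = 0.237). The GSO1 values spread widely within both groups, and without GFP-negative library 41 its log2 fold change was 3.12. AT1G14630, annotated as XRI1-like, had 28.3, 29.1 and 18.03 CPM against 4.75, 4.92 and 2.32 CPM (log2 fold change 2.64 ± 0.49, adjusted p = 0.127). In GFP-negative libraries 41 and 42, where 3 reads amount to 2.89 and 1.62 CPM, its values rest on few reads.

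None of the 12 lower genes passed the adjusted test, and they are described singly. KCS2 (AT1G04220) and KCS20 (AT5G43760) are 3-ketoacyl-CoA synthases, which elongate very-long-chain fatty acids for wax and suberin. KCS2 had 69.2, 77.8 and 51.1 CPM in GFP-positive nuclei and 141, 167 and 220.2 CPM in GFP-negative nuclei (log2 fold change -1.42 ± 0.24, adjusted p = 0.0941). Of the KCS2 gene, 75.9% lies opposite other genes, so its counts rest on the small part without overlap and can hold reads of either strand. KCS20, which has no such overlap, had 76.4, 63.03 and 55.1 CPM against 112, 161 and 205 CPM (log2 fold change -1.29 ± 0.25, adjusted p = 0.170). FAR6 (AT3G56700), a fatty acid reductase, had 92.2, 88.2 and 67.8 CPM against 156, 187 and 194 CPM (log2 fold change -1.11 ± 0.21, adjusted p = 0.170). The lipid transfer protein gene AT2G15050, shown as LTP in the plot of the 24 genes, had 531, 549 and 347 CPM against 1055, 1051 and 1304 CPM (log2 fold change -1.26 ± 0.22, adjusted p = 0.102). In the 3-ketoacyl-CoA synthase family, looked up after KCS2 and KCS20 were seen, 6 of 20 tested genes were lower and 1 was higher at an unadjusted p under 0.05, where 3.79% and 2.96% of all tested genes were, and none was called. KCS2 and KCS20 are themselves among the 6. So are KCS1, CER6 and FDH, which also belong to the epidermis list described further on, so the counts of the family and of that list share genes.

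LTI30 (AT3G50970), a dehydrin of the cold and drought response, had 56.4, 62.8 and 47.1 CPM in GFP-positive nuclei against 114, 115 and 131 CPM in GFP-negative nuclei (log2 fold change -1.12 ± 0.22). The protein kinase gene AT4G25390 had 59.7, 79.9 and 39.4 CPM against 178, 144 and 158 CPM (log2 fold change -1.43 ± 0.26). AT3G26240, which encodes a protein with C1 domains, had 24.4, 18.9 and 27.3 CPM against 66.2, 64.9 and 78.8 CPM (log2 fold change -1.57 ± 0.27). Their adjusted p-values were 0.180, 0.102 and 0.0941 in this order. AT1G56660 stood out by its level, with 1252, 1522 and 1087 CPM against 2177, 2655 and 3019 CPM (log2 fold change -1.02 ± 0.22, adjusted p = 0.290). AT4G30250, AT2G15042, the pseudogene AT5G31821 and RRTF1 (AT4G34410), a redox-responsive transcription factor with 69.5% of its length opposite other genes, had log2 fold changes of -1.07, -1.17, -1.99 and -1.20 in this order.

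The newer edgeR setting called 15 genes, of which 14 are among these 24. The gene outside them was AT4G04550, an uncharacterised gene with an average level below the naming rule, picked out here after its values were seen. It had 14.2, 7.26 and 16.7 CPM in GFP-positive nuclei and 0.95, 0 and 0.579 CPM in GFP-negative nuclei, where no library had more than 3 reads. In that setting the higher genes were SMXL5, ACI1, AT4G39190, AT2G33620, CYP707A1, AT5G40790, GSO1, UMAMIT12, AT4G04550 and bZIP7, and the lower genes were KCS2, AT4G25390, AT3G26240, the lipid transfer protein gene AT2G15050 and KCS20.

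**Figure D2:**
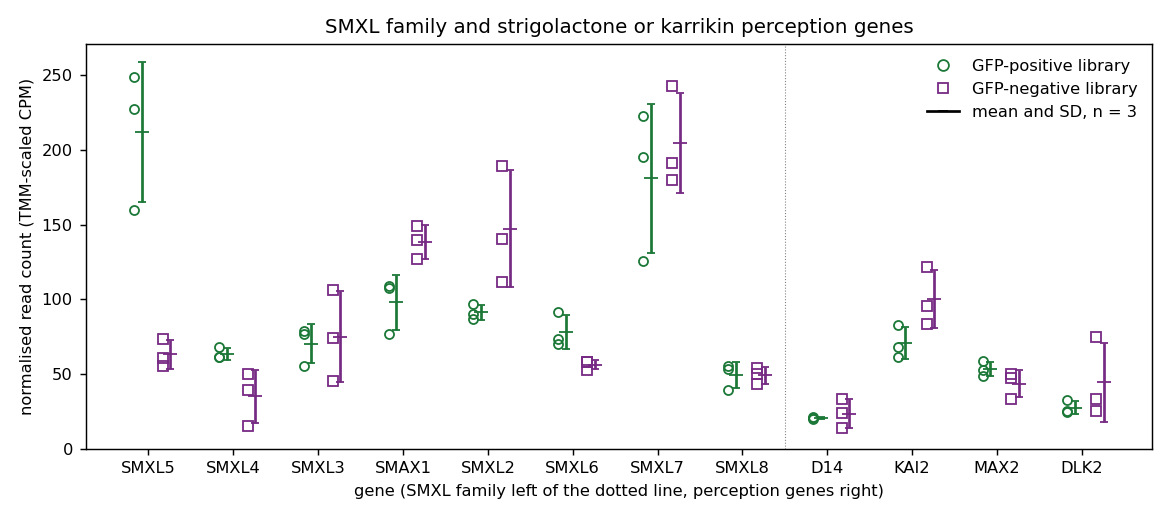
Normalised read counts (TMM-scaled CPM, linear axis) of the 8 SMXL genes and 4 genes of strigolactone and karrikin perception, with each library as a point and the mean and SD of 3 libraries beside it, GFP-positive left of GFP-negative. SMXL5 is the gene with the widest separation of the groups; SMXL4 and SMXL6 lie above, SMAX1, SMXL2 and KAI2 below, and the others overlap.

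The SMXL family was examined gene by gene, since its members fall into those that act in phloem formation (SMXL3, SMXL4 and SMXL5), those that act downstream of karrikin perception (SMAX1 and SMXL2) and those that act downstream of strigolactone perception (SMXL6, SMXL7 and SMXL8). All 8 genes were tested and SMXL5 was the only call. SMXL4 (AT4G29920) had 61.1, 68.2 and 61.7 CPM in GFP-positive nuclei and 15.5, 50.2 and 39.4 CPM in GFP-negative nuclei, a log2 fold change of 0.92 ± 0.35 (SE, adjusted p = 0.640). The groups did not overlap, but GFP-negative library 40 lay far below the other GFP-negative libraries. SMXL3 (AT3G52490), the remaining gene of phloem formation, had 55.3, 78.9 and 76.7 CPM against 73.8, 45.2 and 106 CPM, and its groups overlapped (log2 fold change -0.11 ± 0.28).

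The members tied to karrikin perception had values in the other direction, without passing the test. SMAX1 (AT5G57710) had 109, 108 and 76.9 CPM in GFP-positive nuclei and 127, 139.6 and 149 CPM in GFP-negative nuclei (log2 fold change -0.50 ± 0.22, adjusted p = 0.698). SMXL2 (AT4G30350) had 96.95, 90.3 and 87.2 CPM against 112, 141 and 189.5 CPM (log2 fold change -0.68 ± 0.23, adjusted p = 0.623). The karrikin receptor gene KAI2 (AT4G37470) had 68.3, 82.5 and 61.5 CPM against 83.3, 95.4 and 122 CPM (log2 fold change -0.50 ± 0.23, adjusted p = 0.738). For all 3 of these genes every GFP-positive library lay below every GFP-negative library, which held for 6.6% of all tested genes. SMXL6, SMXL7 and SMXL8 had log2 fold changes of 0.48, -0.17 and 0.02, and the strigolactone receptor gene D14, the shared F-box gene MAX2 and the D14-related gene DLK2 had -0.22, 0.30 and -0.69. The median log2 fold change of the 8 SMXL genes was -0.05 (-0.10 to 0.16 with 1 library left out, the highest without GFP-negative library 42). That of the 4 perception genes was -0.36, and 0.01 without GFP-negative library 42.

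**Figure D3:**
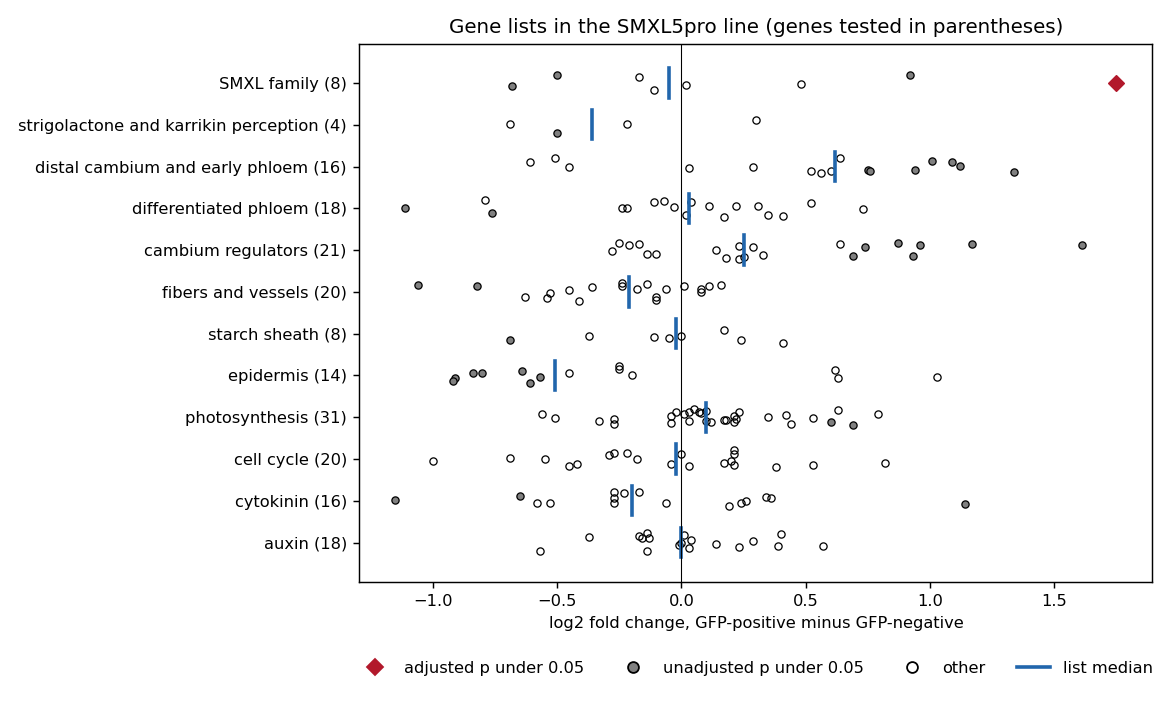
Log2 fold change (GFP-positive minus GFP-negative, x axis) of every tested gene in 12 gene lists, with a blue bar at the list median; the red diamond is past the adjusted threshold, grey points have an unadjusted p under 0.05 and open points do not. The medians of the lists run from -0.51 for epidermis to 0.62 for distal cambium and early phloem, and the red diamond is SMXL5.

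Marker lists of the tissues that make up the stem were used to check the label of the sorted nuclei. Early phloem and distal cambium genes had the highest median of the lists and epidermis genes the lowest, but no marker passed the adjusted test. Among called genes the label rested on SMXL5 alone. Its promoter drives the reporter that was sorted for, so its rise is not separate support for the label. The paper reports from microscopy of stem sections that GFP labelled nuclei of the expected tissues only. Of 16 tested genes of the distal cambium and early phloem list, 7 were higher and 0 lower at an unadjusted p under 0.05, against 2.96% and 3.79% of all tested genes, and the median log2 fold change was 0.62, against -0.03 over all tested genes. The remaining gene of the list, CLE45, was not tested: 100% of its length lies opposite another gene. The summed level of the 16 genes was 666, 661 and 561 CPM in GFP-positive nuclei, against 378, 408 and 438 CPM in GFP-negative nuclei. Without any 1 library the median of these genes lay between 0.55 and 0.86, and with all libraries sampled down to the shallowest it was 0.63. The lists were chosen with earlier results of these data known, and some of their genes were picked by the study from libraries that include these.

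In the early phloem list, OPS and CVP2 had the smallest p. OPS (AT3G09070), the gene of the membrane protein OCTOPUS that promotes phloem differentiation, had 70.3, 58.9 and 41.3 CPM in GFP-positive nuclei against 12.7, 32.5 and 24.9 CPM in GFP-negative nuclei (log2 fold change 1.34 ± 0.36, unadjusted p = 0.00166, adjusted p = 0.459). CVP2 (AT1G05470), a phosphoinositide phosphatase of vein and phloem development, had 71.1, 81.4 and 63.01 CPM against 44.01, 25.6 and 28.97 CPM (log2 fold change 1.09 ± 0.27, unadjusted p = 0.00108, adjusted p = 0.409). In both genes the lowest GFP-positive library lay above the highest GFP-negative library. The receptor kinase gene BAM3 (AT4G20270), which in the root perceives the peptide CLE45 in developing phloem, had 103, 109 and 106 CPM against 38.6, 63.9 and 86.9 CPM (log2 fold change 0.76 ± 0.27, adjusted p = 0.631). CLE26 (AT1G69970), which encodes another peptide of this family, had 23.1, 24.9 and 16.4 CPM against 8.23, 7.87 and 13.3 CPM (log2 fold change 1.12 ± 0.43, adjusted p = 0.643).

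PEAR1 and PEAR2 are Dof transcription factors of early phloem cells that stimulate divisions in the neighbouring cells. PEAR1 (AT2G37590) had 27.2, 29.6 and 24.3 CPM in GFP-positive nuclei and 14.9, 10.8 and 13.9 CPM in GFP-negative nuclei (log2 fold change 1.01 ± 0.37, adjusted p = 0.631). PEAR2 (AT5G02460) had 59.2, 57.3 and 56.7 CPM against 17.4, 39.3 and 36.5 CPM (log2 fold change 0.94 ± 0.31, adjusted p = 0.631). The related Dof genes DOF6, TMO6 and HCA2 had log2 fold changes of -0.45, 0.56 and 0.03, with overlapping groups. Over all 27 tested Dof genes, a family looked up after these values were seen, 7 were higher and 1 lower at an unadjusted p under 0.05, where 2.96% and 3.79% of all tested genes were, and the median log2 fold change was 0.03. The 7 include PEAR1, PEAR2 and DOF2.2, which the study had picked from libraries that include these. MOL1 (AT5G51350), a receptor-like kinase that restrains cambium activity, had 51.4, 42.02 and 34.7 CPM against 21.5, 38.4 and 18.5 CPM (log2 fold change 0.75 ± 0.34, adjusted p = 0.719), and its groups overlapped.

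Genes of the differentiated phloem had a median close to that of all genes. Of 18 tested genes, 0 were higher and 2 lower at an unadjusted p under 0.05, against 2.96% and 3.79% of all tested genes. The median log2 fold change was 0.03, or -0.04 without GFP-positive library 12. APL (AT1G79430), a transcription factor that specifies phloem identity, had 40.8, 40.2 and 49.5 CPM in GFP-positive nuclei and 39.6, 29.5 and 32.5 CPM in GFP-negative nuclei (log2 fold change 0.35 ± 0.28, adjusted p = 0.839). SUC2, the sucrose carrier of companion cells, and SEOR1, a structural protein of sieve elements, had log2 fold changes of -0.07 ± 0.22 and 0.31 ± 0.40. The genes with lower values were AKT2 (AT4G22200), a potassium channel of the phloem, and SWEET11 (AT3G48740), a sucrose exporter. AKT2 had 124, 157 and 104 CPM against 198, 205 and 251 CPM (log2 fold change -0.76 ± 0.22, adjusted p = 0.558), and SWEET11 had 22.8, 24.1 and 28.4 CPM against 63.7, 27.5 and 68.95 CPM (log2 fold change -1.11 ± 0.33, adjusted p = 0.581). SWEET12, the close relative of SWEET11, had 22.8, 32.2 and 29.1 CPM against 14.3, 20.7 and 16.8 CPM, in the opposite direction (log2 fold change 0.73 ± 0.36, adjusted p = 0.755).

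Among 21 cambium regulators, 7 were higher and 0 lower at an unadjusted p under 0.05, against 2.96% and 3.79% of all tested genes. The median log2 fold change was 0.25. It lay between 0.23 and 0.41 with 1 library left out, the highest without GFP-negative library 40. WOX4 (AT1G46480), a homeobox factor that maintains cambium divisions, had 65.3, 70.3 and 56.1 CPM in GFP-positive nuclei and 21.5, 39.3 and 39.4 CPM in GFP-negative nuclei (log2 fold change 0.96 ± 0.29, adjusted p = 0.581). ANT (AT4G37750), a growth regulator of the AP2 family, had 84.7, 92.3 and 81.7 CPM against 21.2, 62.9 and 35.9 CPM (log2 fold change 1.17 ± 0.32, adjusted p = 0.501). ATHB8 (AT4G32880), an HD-ZIP factor of early vascular cells, had 92.5, 105 and 83.02 CPM against 54.5, 69.8 and 31.3 CPM (log2 fold change 0.87 ± 0.27, adjusted p = 0.613). PXY (AT5G61480), the receptor kinase that marks the proximal side of the cambium, had overlapping groups with 87.8, 113 and 82.9 CPM against 85.8, 104 and 68.4 CPM (log2 fold change 0.14 ± 0.23, adjusted p = 0.928).

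The other higher genes of this list had been picked by the study for their pattern across the sorted tissues, which included the same GFP-positive libraries, so their direction is not independent evidence. DOF2.2 (AT2G28810), a further Dof factor, had 69.5, 85.3 and 43.2 CPM in GFP-positive nuclei against 27.2, 12.8 and 22.02 CPM in GFP-negative nuclei, with the largest log2 fold change of the list, 1.61 ± 0.34 (adjusted p = 0.265). UCN, a protein kinase gene, PIL1, a relative of the phytochrome interacting factors, and ATHMP10, a gene of a heavy metal-associated protein, had log2 fold changes of 0.74 ± 0.28, 0.69 ± 0.29 and 0.93 ± 0.31. BG4, picked in the same way, had -0.21 ± 0.22 with overlapping groups. ANT belongs to the genes picked in this way as well, so of the higher genes of this list only WOX4 and ATHB8 were not.

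Markers of the epidermis had the lowest median of the 12 lists in GFP-positive nuclei, although none was called. Of 14 genes, 7 were lower and 0 higher at an unadjusted p under 0.05, against 3.79% and 2.96% of all tested genes. The median log2 fold change was -0.51. The summed level was 939, 1116 and 914 CPM in GFP-positive nuclei against 1392, 1597 and 1592 CPM in GFP-negative nuclei. CER1 (AT1G02205) and CER6 (AT1G68530) act in the synthesis of cuticular wax. CER1 had 198, 247 and 157 CPM against 337, 345 and 447 CPM (log2 fold change -0.91 ± 0.22, adjusted p = 0.363), and CER6 had 131, 183 and 108 CPM against 234, 255 and 246 CPM (log2 fold change -0.80 ± 0.22, adjusted p = 0.520). FDH, CER3, CER4, KCS1 and the lipid exporter gene ABCG11 had log2 fold changes of -0.61, -0.64, -0.84, -0.57 and -0.92. LTP1, whose promoter marks the epidermis elsewhere in the series, was low in all libraries and not lower in GFP-positive nuclei, with 7.78, 6.48 and 12.9 CPM against 5.70, 2.95 and 4.06 CPM (log2 fold change 1.03 ± 0.56, adjusted p = 0.773). Among the GFP-positive libraries of all promoters the LTP1 gene averaged 53.9 CPM in VND7pro nuclei, its highest mean, and 31.8 CPM in LTP1pro nuclei. In the fit of 18 libraries described further on, PDF1 and BDG of this list also had positive log2 fold changes, 0.56 and 0.63. The median of the epidermis list lay between -0.69 and -0.32 when 1 library was left out, the smaller difference without GFP-negative library 41, and it was -0.49 after sampling down. In bulk nuclei, fewer nuclei of a type and less RNA per nucleus cannot be told apart.

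Fiber and vessel genes had a median log2 fold change of -0.21 over 20 genes. Of these, 0 were higher and 2 lower at an unadjusted p under 0.05, against 2.96% and 3.79% of all tested genes. With 1 library left out the median lay between -0.32, without GFP-negative library 40, and -0.12, without GFP-negative library 41. The 2 lower genes were MYB46 (AT5G12870) and MYB83 (AT3G08500), factors that switch on secondary wall synthesis. MYB46 had 19.4, 19.97 and 21.3 CPM in GFP-positive nuclei against 39.9, 35.4 and 31.9 CPM in GFP-negative nuclei (log2 fold change -0.82 ± 0.31, adjusted p = 0.643), and MYB83 had 18.3, 14.8 and 18.03 CPM against 30.1, 28.5 and 48.1 CPM (log2 fold change -1.06 ± 0.35, adjusted p = 0.619). NST3 and VND7, the master regulators of fibers and vessels, had log2 fold changes of -0.06 ± 0.23 and -0.24 ± 0.32, and their groups overlapped. The cellulose synthase genes of the secondary wall, CESA4, CESA7 and CESA8, had -0.41, -0.18 and -0.14. Reads of fiber and vessel genes were thus present in GFP-positive nuclei, with a summed level of 1362, 1651 and 1172 CPM against 1531, 1735 and 1716 CPM in GFP-negative nuclei.

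The photosynthesis, starch sheath, cell cycle, cytokinin and auxin lists had medians between -0.20 and 0.10. The median log2 fold change was 0.10 for 31 photosynthesis genes (0.02 without GFP-positive library 11 and 0.26 without 12), where LHCA2 (0.60) and LHCA3 (0.69) of the antenna of photosystem I were the genes at an unadjusted p under 0.05. It was -0.02 for 8 starch sheath genes, where LAZY1, which acts in shoot gravitropism, had -0.69. It was -0.02 for 20 cell cycle genes, of which none had an unadjusted p under 0.05 and none had separate groups. Over all tested genes, 2.96% were higher and 3.79% lower at that threshold. All GFP-positive libraries lay above all GFP-negative ones for 6.99% of them and below for 6.6%. With 1 library left out the starch sheath median ran from -0.08 to 0.07 and the cell cycle median from -0.04 to 0.10, so neither had a settled sign. Among 16 tested cytokinin genes the median was -0.20, and it was -0.09 without GFP-positive library 12 or without GFP-negative library 40. The paralogous cytokinin-activating enzymes LOG4 and LOG3 had values in opposite directions, with 27.2, 26.7 and 24.8 CPM in GFP-positive nuclei against 8.23, 13.8 and 14.5 CPM in GFP-negative nuclei for LOG4 (1.14 ± 0.39, adjusted p = 0.631) and 9.72, 9.08 and 15.2 CPM against 22.8, 14.8 and 37.7 CPM for LOG3 (-1.15 ± 0.43, adjusted p = 0.641). ARR7, a response regulator that dampens cytokinin signalling, had -0.65 ± 0.26. The 18 auxin genes had a median of 0.00 (-0.05 to 0.11 with 1 library left out) and none had an unadjusted p under 0.05. The endogenous H4 gene AT5G59690 had 7.78, 10.9 and 5.79 CPM against 2.53, 9.83 and 13.3 CPM (-0.02 ± 0.61).

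**Figure D4:**
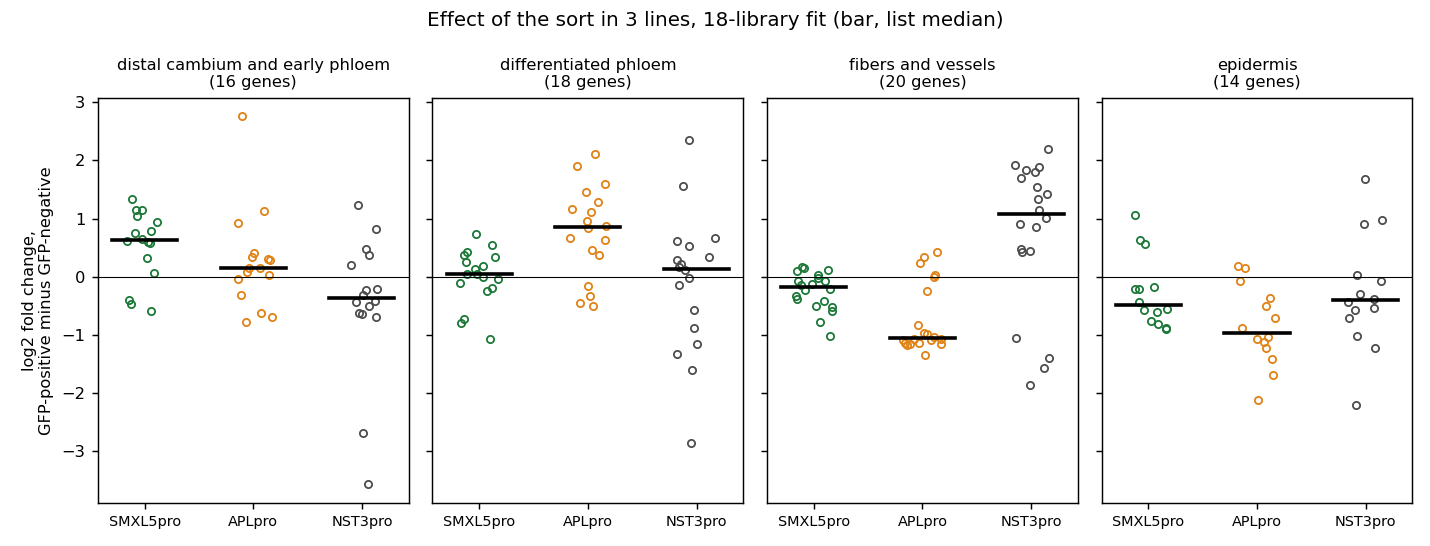
Log2 fold change (GFP-positive minus GFP-negative, y axis) of each gene in 4 marker lists in the SMXL5pro, APLpro and NST3pro lines, from 1 fit of 18 libraries, with a black bar at the list median. In SMXL5pro the medians lie between -0.49 and 0.63; the fiber and vessel median is -0.19 in SMXL5pro, -1.05 in APLpro and 1.08 in NST3pro.

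The same sort was made in Col-0 plants with APLpro:H4-GFP, which marks differentiated phloem, and with NST3pro:H4-GFP, which marks fibers, with 3 libraries per population. In 1 fit of all 18 libraries the early phloem list had a median log2 fold change of 0.63 in SMXL5pro, 0.14 in APLpro and -0.37 in NST3pro. The medians over all tested genes were 0.00, 0.18 and 0.03 in this order, so the APLpro value lay below that of all genes in its line. The differentiated phloem list had 0.04, 0.85 and 0.14, and the fiber and vessel list had -0.19, -1.05 and 1.08, in the same order of lines. Epidermis genes had negative medians in all 3 lines, -0.49 in SMXL5pro, -0.96 in APLpro and -0.41 in NST3pro. The lists were not tested for a difference between lines. Across 8869 genes the log2 fold changes of SMXL5pro correlated with those of APLpro at a Pearson's r of 0.081 and with those of NST3pro at -0.077, as a description across genes of separate libraries with the same assay.

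SMXL5 itself had a log2 fold change of 1.78 in SMXL5pro, -0.33 in APLpro and -0.27 in NST3pro in this fit. The test of the difference gave an adjusted p of 1.00 against APLpro and of 0.318 against NST3pro, so neither difference passed. Of the 12 higher genes of the naming rule, 7 also had a positive log2 fold change in APLpro and 5 in NST3pro, and of the 12 lower genes 10 were negative in APLpro and 7 in NST3pro. These counts rest on genes that the SMXL5pro values chose. Over all tested genes the median log2 fold change was 0.18 in APLpro and 0.03 in NST3pro, so positive values were the more common ones in both lines.

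Tests of the difference between lines called 2 of 31898 genes against APLpro (0.00627%) and 1 against NST3pro (0.00313%). TLL1, a triacylglycerol lipase-like gene, had 120, 132 and 117 CPM in GFP-positive and 87.0, 123 and 114 CPM in GFP-negative SMXL5pro nuclei, a log2 fold change of 0.18, against 3.21 in APLpro. The difference of these effects was -3.03 ± 0.43 (SE, adjusted p = 0.0257, edgeR). AT3G58720, a RING/U-box gene, had log2 fold changes of -0.17 in SMXL5pro and 4.53 in APLpro, a difference of -4.70 ± 0.70 (SE, adjusted p = 0.0259). In both genes the groups of the SMXL5pro line overlapped. Next in order of p were AT2G39850, AT4G00780 and NAKR1, each with a higher log2 fold change in APLpro and none past the threshold. With 1 of the 18 libraries left out this test called 0 to 7 genes, the highest number without GFP-negative NST3pro library 47.

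Against NST3pro, AT1G11110 was called. It had 11.9, 17.4 and 16.4 CPM in GFP-positive SMXL5pro nuclei and 12.9, 12.4 and 5.47 CPM in GFP-negative SMXL5pro nuclei, while all 3 GFP-positive NST3pro libraries were at 0. Its fitted difference of 9.64 ± 1.36 (SE, adjusted p = 0.0383, edgeR) depends on how the fit treats these zeros and is no bound. PLT2, AT5G32267, AT3G53820 and AT5G35780 followed with an adjusted p of 0.0656 each, all with libraries at 0 in 1 population of the NST3pro line. The number of genes called against NST3pro ran from 0 to 600 when 1 library was left out, the highest without GFP-negative NST3pro library 46.

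The GFP-positive SMXL5pro libraries could also be set beside the GFP-positive libraries of 6 other promoters, 21 libraries in all, scaled together. NST3pro library 2, VND7pro library 6, APLpro library 15 and LTP1pro library 19 are included, although they were left out of the published comparison of promoters as outliers. Counts without them, from 17 libraries, were added after the data were seen. APLpro library 15 and NST3pro library 2 also entered the fit of 18 libraries. The SMXL5pro libraries are those described above, so their levels are not separate evidence. SMXL5 averaged 141 ± 33.0 CPM in SMXL5pro nuclei (SD, n = 3), and the next level was 66.1 ± 24.8 CPM in PXYpro nuclei, the proximal cambium, followed by 47.6 ± 13.3 CPM in APLpro nuclei. AT4G39190 averaged 90.7 ± 12.2 CPM in SMXL5pro nuclei and 104 ± 25.0 CPM in PXYpro nuclei, levels that overlapped within their spread. Of the 16 tested early phloem markers, MOL1, PEAR1, PEAR2, BRX and CLE42 had their highest mean in SMXL5pro nuclei, 5 in all (4 of 16 from 17 libraries). For another 5 the highest mean was in PXYpro nuclei, for 3 in APLpro, for 2 in VND7pro and for 1 in SCRpro nuclei. OPS averaged 37.9 CPM in SMXL5pro and 71.8 CPM in PXYpro nuclei, and CVP2 47.9 CPM in SMXL5pro and 81.1 CPM in VND7pro nuclei, so the markers with the smallest p in the sort were not highest in SMXL5pro. Levels were 28.5 ± 5.72 CPM in SMXL5pro against 22.95 ± 10.55 CPM in VND7pro nuclei, the vessels, for MOL1, and 38.4 ± 1.14 CPM in SMXL5pro against 30.2 ± 5.70 CPM in APLpro nuclei for PEAR2. PXY averaged 63.1 ± 11.9 CPM in SMXL5pro nuclei and 277 ± 44.96 CPM in PXYpro nuclei. Of the 12 higher genes, 5 had their highest mean in SMXL5pro and 8 ranked first or second there (4 and 8 from 17 libraries). Of the 12 lower genes, 4 had their lowest mean in SMXL5pro, while KCS2 and AT3G26240 had their second highest mean there. For 7 of the 12 the highest mean was in the LTP1pro nuclei of the epidermis (6 from 17 libraries). The share of all genes with their highest mean under each promoter is not given here, so these counts stand without a background. KCS2 averaged 44.03 ± 9.71 CPM in SMXL5pro and 742 ± 443 CPM in LTP1pro nuclei (479 CPM without LTP1pro library 19), and between 8.77 and 20.6 CPM under the other 5 promoters. AT1G56660 averaged 858 ± 159.6 CPM in SMXL5pro nuclei, the lowest of the 7 promoters, and 42238 ± 5682 CPM in PXYpro nuclei. The next lowest mean was 9904 CPM, in SCRpro nuclei. GFP-negative SMXL5pro nuclei had 2617 CPM in the scaling of their own line, so both populations of this line were below the other promoters. Each promoter is its own line and set of libraries, and tissue and line cannot be told apart in these levels.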

How the data were processed

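Nuclear RNA of 15000 sorted nuclei per library was amplified by SMART-seq2 without molecular identifiers and sequenced as single-end reads. The deposited values were raw read counts per gene: the authors trimmed reads with Cutadapt 2.3, aligned them to TAIR10 with STAR 2.5.0a, kept unique hits and counted Araport11 gene bodies, introns included, with strand ignored, using R 3.5.0. Reads that touched more than 1 gene were not assigned (mode Union), so genes that overlap others on the opposite strand are counted only in part. Where more than 3 preparations existed, those with a high GFP contrast had been selected by the authors. Reads on GFP were left out of library sizes and tests.

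Genes were filtered with filterByExpr, scaled by TMM and tested two-sided with glmQLFit and glmQLFTest in edgeR 4.0.16 under R 4.3.3, with Benjamini-Hochberg adjustment at 0.05 over all genes tested. Standard errors were taken from the F statistic. DESeq2 1.42.0 and voom with quality weights in limma 3.58.1 were alternatives. An earlier pass used the newer quasi-likelihood setting (legacy=FALSE, 15 genes called) in the mistaken belief that it was the package default, so the default had first been meant as an alternative. The reported fit uses the default (2 genes called). It was chosen with both counts known, because the written design named no setting. On counts simulated for the 30317 genes of this comparison, 0, 4, 44 and 50 of 50 genes changed 1.5-, 2-, 4- and 8-fold were called, with 4 false calls. The simulation gave all genes a common dispersion, equal in both groups, and changed only genes at or above the level of the naming rule. In the data the GFP-negative libraries were less alike, so these counts do not give the power there. ACI1, with a log2 fold change of 3.16, was not called.

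Genes named are all called genes, the 12 higher and 12 lower genes with the smallest unadjusted p (average log2 CPM of at least 4, groups without overlap), members of the gene lists, and the 5 genes with the smallest p in each test between lines. The members and lists were chosen with earlier results of these data known. Lists were described by counts and medians, without a set test. Gene names and overlaps came from the RefSeq annotation of TAIR10.1, in which all 37051 counted genes were found. Figures were drawn with matplotlib 3.10.9.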

Additional observations from a re-analysis of the deposited data

Results flagged for a closer look

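The effect of the sort differed between lines in the edgeR test of the difference for 3 genes. TLL1 had a difference of -3.03 on the log2 scale (SMXL5pro minus APLpro), with an effect of 0.18 in SMXL5pro and 3.21 in APLpro, and AT3G58720 had a difference of -4.70, with -0.17 in SMXL5pro and 4.53 in APLpro. AT1G11110 had a fitted difference of 9.64 (SMXL5pro minus NST3pro), which rests on GFP-positive NST3pro libraries at 0. Reads on the GFP sequence, which enter no test across genes, were higher by 7.305 CPM in GFP-positive nuclei than in GFP-negative nuclei, where they were also present.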

How the results depend on the processing

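The count of genes called in the SMXL5pro line depended on the model. The log2 fold changes of 62 genes with alternatives computed kept their sign under each of them. These genes include the 24 of the naming rule, which were chosen for groups without overlap. Genes with small differences, such as SMXL3 and PXY, were not run, so the stable signs follow in part from the choice of genes. The medians of 5 of 13 gene lists changed sign in at least 1 fit (SMXL family, strigolactone and karrikin perception, differentiated phloem, starch sheath, cell cycle). The auxin median was 0.00 in the main fit, so no change of sign could be counted for it. It ran from -0.05 to 0.11 with 1 library left out. Against 2 genes, DESeq2 called 69, voom with quality weights 23 and the newer edgeR setting, added after the data were seen, 15. There were 4 without a filter on low counts, 5 among protein-coding genes alone, 4 after sampling down to the shallowest library and 0 in the fit of 18 libraries, where 150 genes had an unadjusted p under 0.05. Each of these settings except the 18-library fit called both SMXL5 and AT4G39190. With 1 library left out the count was 0 to 12, the highest without GFP-negative library 42. It stayed at 2 with DESeq2 size factors, a filter of 1 CPM in 3 libraries, or without genes that overlap another on the opposite strand (added after the data were seen). DESeq2 size factors moved the median of all genes by -0.009. The difference between SMXL5pro and APLpro called 2 genes, 0 with DESeq2 size factors, 46 with voom and 0 to 7 with 1 library left out, the highest without GFP-negative NST3pro library 47. The difference between SMXL5pro and NST3pro called 1 gene, 27 with voom, 0 with the newer setting and 0 to 600 with 1 library left out: 600 without GFP-negative NST3pro library 46, 203 without 48, 39 without 47, and 113 and 12 without GFP-positive NST3pro libraries 2 and 3. The causes of these changes were not tested. The GFP difference was 5.396 to 8.992 CPM with 1 library left out. Simulated 2-fold changes were mostly missed (4 of 50 called), but with a common dispersion in both groups the simulation does not give the power in these data. A gene without a call is not shown to be equal. No paired analysis was run, because the labels do not link GFP-positive to GFP-negative libraries. The paper took both populations from each line and chose preparations by the GFP contrast of their sorted populations. Libraries may therefore be paired by preparation, which the unpaired tests ignore.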
